A study of Oryza sativa with 6 samples.

Results

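Expansins, cellulose synthases (CESA) and cellulose synthase-like proteins (CSL) of rice (Oryza sativa) were followed in leaves under drought. A probe belonged to the set if the platform annotation gave it a single gene, and if that gene carried a synonym of the form EXPA, EXPB, EXLA, CESA or CSLA to CSLH with a number, with or without the prefix Os. This gave 52 of the 15798 genes that the array names, read by 65 of its 22575 spots. The expansins had 32 probes of 29 genes, CESA had 13 probes of 8 genes, and CSL had 20 probes of 15 genes. The gene table held 83 genes that match, so the array covers these families in part, and CESA9 was not among the genes covered. One probe, CSLF6 probe 7665, was listed at exactly 0 on all 6 arrays and was not tested, which left 64 probes of the 17727 tested. The families were picked by name and not by their ratios, but earlier results of these data were known when they were picked.

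The study set 2 rice genotypes side by side, Apo, a drought-tolerant one, and IR64, a susceptible one, in the submitters' terms. Greenhouse plants lost their water supply from 33 days after sowing. The stressed leaves were collected after 5 days according to the sample labels and after 6 days according to the series text, and the control leaves on day 37, so stressed and control leaves may differ in age. Each genotype had 3 arrays, and each array compared well-watered leaf RNA labelled with Cy5 and drought-stressed leaf RNA labelled with Cy3, with no exchange of dyes. No label says whether the replicates were separate plants. The spread between samples that the p-values use may thus be a technical one.

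Every value is a deposited ratio between stressed and control RNA of one array, taken as a log10 ratio, the scale this scanner software writes. The sources used here do not state the numerator, so members are described as positive or negative. As an anchor, the 3 probes for RAB16 dehydrins, genes known for their induction by drought and abscisic acid, were all positive. Their means ran from 1.22 to 1.72 in Apo and from 1.27 to 1.48 in IR64. A second anchor list, 12 probes for SAPK kinases, was mostly but not wholly positive. At an adjusted p under 0.05 (limma), 8 were positive and 1 negative in Apo, and 7 positive and 0 negative in IR64. The positive shares were 66.7% and 58.3%, beside 24.5% and 22.7% of all tested probes. SAPK7 was the negative one, with an Apo mean of -0.202 (adjusted p = 0.00894, limma). A dye effect common to all arrays would stay in the ratios of each genotype, and it cancels in the difference between genotypes. Ratios give no levels, so the leaf identity of the samples could not be checked by marker levels, and members are not compared by level.

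The plant cell wall is a network of cellulose fibres in a matrix of other polysaccharides. CESA proteins assemble in the plasma membrane into complexes that spin cellulose. In rice, CESA1, CESA3 and CESA8 are known for the wall of growing cells, and CESA4, CESA7 and CESA9 for the secondary wall of vessels and fibres, where mutants have brittle culms. CSL proteins are related enzymes that make matrix polysaccharides, among them the mixed-linkage glucan that is typical of grasses. Expansins are secreted proteins that loosen walls so that cells can extend. Alpha-expansins (EXPA) and beta-expansins (EXPB) are the main classes, and beta-expansins are abundant in grasses. Expansin-like A proteins (EXLA) resemble them, but no loosening activity has been shown for them.

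The spread of ratios over the tested probes was comparable between arrays, with SDs from 0.268 to 0.358. Replicate 1 of IR64 stood apart from its group. Across all tested probes it correlated with the 3 Apo arrays at 0.831 to 0.894 (Pearson's r), and with the other IR64 arrays at 0.755 and 0.767. The other IR64 arrays correlated with each other at 0.938. Calls in IR64 and in the difference that change without that array are therefore given both ways. Exact zeros, which may not be measurements, made up 595 to 2015 spots per array, and 11 of the member probes had at least one.

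In Apo, 26 of the 64 member probes passed an adjusted p of 0.05 in limma (Benjamini-Hochberg over all tested probes), 9 positive and 17 negative. That is 40.6% of the members, where 50.1% of all tested probes passed. In IR64, 16 members passed, 5 positive and 11 negative, which is 25.0% where 43% of all probes passed. The families as a whole therefore passed no more often than the array at large. Positive calls made up 24.5% of all probes in Apo and 22.7% in IR64, and negative calls 25.6% and 20.2%. Without replicate 2 of Apo the Apo count was 16 (38.1% of all probes), and without replicate 3 it was 17 (37.5%). Of the IR64 calls, 5 were positive with all arrays, 8 without replicate 1 of IR64 (25.9% of all probes), and 10 in a fit that blocked on the replicate number (25.5%). Negative IR64 calls numbered 7 without replicate 3 of IR64 (14.1% of all probes).

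The 3 families differed in how their calls fell. Of the 13 CESA probes, 6 were negative and 1 positive in Apo, and 5 were negative and 1 positive in IR64. The negative shares were 46.2% in Apo and 38.5% in IR64, beside 25.6% and 20.2% of all probes. The positive share was 7.69% in each genotype, beside 24.5% and 22.7% of all probes. The same 5 CESA probes were negative in both genotypes, which is 38.5% of the family, while 15.1% of all probes were. Of the 32 expansin probes, 7 were negative and 4 positive in Apo, and 4 were negative and 1 positive in IR64. Their negative shares were 21.9% and 12.5%, and their positive shares 12.5% and 3.13%, each below that of all probes. Negative calls in both genotypes were found for 2 expansin probes, or 6.25%. Of the 19 CSL probes tested, 4 were negative and 4 positive in Apo, and 2 were negative and 3 positive in IR64. These are 21.1% in each direction in Apo, and 10.5% and 15.8% in IR64, each also below the share of all probes. CSL had 2 probes negative in both genotypes, or 10.5%, beside 15.1% of all probes. It had 3 probes positive in both, and that share of 15.8% was near the 15.7% of all probes. These shares were not compared by a test, since probes of related genes are not independent.

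The median log10 ratio of the CESA probes was -0.126 in Apo and -0.138 in IR64. It was negative on each of the 6 arrays, from -0.159 to -0.0584. The median of the expansins was -0.0619 in Apo and -0.0149 in IR64, and that of CSL -0.0513 and -0.0275. The median over all tested probes was -0.00318 in Apo and 0 in IR64. These medians moved with single arrays. Without replicate 1 of IR64 the IR64 median was -0.0492 for CESA and -0.0337 for expansins. Without replicate 2 of Apo the Apo median was -0.079 for CESA, -0.0193 for expansins and -0.0105 for CSL. The Apo median of the expansins was -0.0329 without replicate 1 and -0.0332 without replicate 3 of Apo. In IR64, leaving out replicate 2 gave -0.0224 for expansins and -0.00772 for CSL, and leaving out replicate 3 gave -0.00463 and -0.0168. Every one of these family medians over a genotype was negative. By single array, the CSL median was 0.0114 on replicate 1 of Apo and 0.0133 on replicate 1 of IR64. It was 0 on replicate 3 of IR64, and negative on the other arrays.

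**Figure D1:**
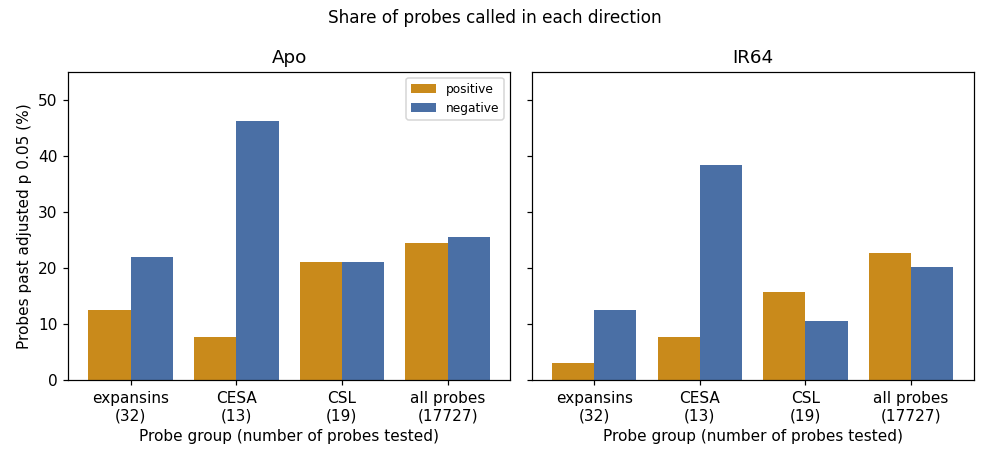
Share of probes past an adjusted p of 0.05 in limma, in percent, for Apo (left) and IR64 (right). Bars stand for expansins, CESA, CSL and all tested probes, with positive ratios in ochre and negative ratios in blue; the negative CESA bars reach 46.2% in Apo and 38.5% in IR64, beside 25.6% and 20.2% of all probes.

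Among the CESA genes, the negative calls included all 3 genes known from growing walls. The probe 15068 for CESA8 (LOC4342699) read -0.811, -0.523 and -0.504 on the 3 Apo arrays and -0.394, -0.342 and -0.271 on the 3 IR64 arrays. All 6 values were negative, and every Apo value lay below every IR64 value. The mean was -0.613 ± 0.172 in Apo (SD, n = 3; adjusted p = 0.000428, limma) and -0.336 ± 0.0614 in IR64 (n = 3; adjusted p = 0.0067, limma). If the base is 10, these are changes of 4.1-fold and 2.17-fold. In bulk leaf RNA, a ratio set by the number of cells of a type (fewer or more) and one set by the RNA per cell (less or more) cannot be told apart, whichever side of 0 it lies on.

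CESA1 (LOC4337958) had 3 probes that did not behave alike. Probe 18637 read -0.717, -0.526 and -0.446 in Apo and -0.404, -0.333 and -0.295 in IR64, again with no overlap between genotypes. Its means were -0.563 ± 0.139 (adjusted p = 0.000319, limma) and -0.344 ± 0.055 (adjusted p = 0.00314, limma; n = 3 each). Probe 7894 read -0.121, -0.237 and -0.0185 in Apo and 0.0121, -0.0403 and -0.0455 in IR64. It missed the threshold in both genotypes with all arrays (adjusted p = 0.0554 in Apo, limma) and passed it in Apo without replicate 3 of Apo (mean -0.179, adjusted p = 0.0335). Probe 3485 read -0.124, 0 and -0.0336 in Apo and -0.159, 0.121 and -0.0922 in IR64, and was not called. The clear negative ratio of CESA1 thus rested on 1 of its 3 probes.

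CESA3 (LOC4343049) was read by probe 10962 with values of -0.594, -0.371 and -0.343 in Apo and of -0.385, -0.329 and -0.343 in IR64. The genotypes overlapped, and the IR64 arrays lay within a narrow band. The mean was -0.436 ± 0.138 in Apo (adjusted p = 0.000726, limma) and -0.352 ± 0.029 in IR64 (adjusted p = 0.00233, limma; n = 3 each). So each of the 3 growing-wall genes had a probe that was called negative in both genotypes.

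CESA5 and CESA6 are further members of the cellulose synthase family. Probe 8732 for CESA5 (LOC4334710) read -0.115, -0.239 and -0.121 in Apo and -0.092, -0.169 and -0.155 in IR64. Its mean of -0.158 ± 0.07 in Apo passed (adjusted p = 0.0118, limma), as did -0.139 ± 0.041 in IR64 (adjusted p = 0.0233, limma; n = 3 each). The Apo call was lost without replicate 2 of Apo (adjusted p = 0.062), and the IR64 call without replicate 2 (0.113) or replicate 3 (0.106) of IR64, or with IR64 fitted alone (0.05). CESA5 was thus negative on all 6 arrays, with a small ratio.

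CESA6 (LOC4342850) had 3 probes, all with negative means. Probe 7006 read -0.476, -0.268 and -0.193 in Apo and -0.253, -0.266 and -0.222 in IR64. It passed in Apo (mean -0.312 ± 0.146, adjusted p = 0.00351, limma) and in IR64 (mean -0.247 ± 0.0222, adjusted p = 0.0116, limma; n = 3 each). Without replicate 2 of IR64 the latter missed the threshold (adjusted p = 0.0633). Probe 13415 had values of -0.232, -0.133 and -0.192 in Apo and -0.272, -0.00505 and -0.0933 in IR64. It passed in Apo (adjusted p = 0.0261, limma), but not once any Apo array was left out (adjusted p from 0.0584 to 0.125). In IR64 its adjusted p was 0.106, and 0.0449 in the fit blocked on replicate number. Its IR64 mean of -0.123 was -0.0492 without replicate 1 of IR64. Probe 11687 read 0.0673, -0.135 and -0.115 in Apo and -0.385, -0.0584 and -0.0315 in IR64, and was not called. Its IR64 mean was -0.158, and -0.0449 without replicate 1 of IR64.

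The secondary-wall genes had positive ratios where they were called. Probe 10889 for CESA4 (LOC4324625) read -0.239, 0.264 and 0.26 in Apo and 0.647, 0.776 and 0.923 in IR64. All IR64 arrays were high, above every Apo array, and replicate 1 of Apo was alone below 0. The IR64 mean of 0.782 ± 0.138 passed (n = 3; adjusted p = 0.00164, limma) and would be a 6.05-fold change at base 10, rank 215 from the top of 17727 probes in IR64. The Apo mean of 0.095 ± 0.290 did not pass (n = 3; adjusted p = 0.487, limma), while without replicate 1 of Apo it was 0.262 (adjusted p = 0.0358).

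Probe 13082 for CESA7 (LOC4348853) read 0.234, 0.222 and 0.0866 in Apo and 0.0969, 0.304 and 0.0202 in IR64. It was positive on all 6 arrays, with overlapping genotypes. The Apo mean of 0.181 ± 0.0819 passed narrowly (n = 3; adjusted p = 0.0433, limma). It missed the threshold under quantile normalization between arrays (adjusted p = 0.0507), without replicate 1, 2 or 3 of Apo (adjusted p = 0.183, 0.163 and 0.058) and without replicate 1 of IR64 (adjusted p = 0.0576). The IR64 mean was 0.14 (adjusted p = 0.103, limma), and passed in the blocked fit (adjusted p = 0.0454).

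CESA2 (LOC4334515) had a pair of probes that were called in neither genotype. Probe 16902 read 0.0692, 0.269 and 0.0257 in Apo and -0.0486, -0.236 and -0.13 in IR64, so that Apo was positive and IR64 negative on every array. Probe 10059 read -0.104, 0.256 and 0.0858 in Apo and -0.0369, 0.27 and 0.319 in IR64, and both genotypes overlapped. In IR64 probe 10059 had an adjusted p of 0.139 in limma, 0.0235 in the blocked fit, and 0.0387 without replicate 1 of IR64. The probes of this gene therefore gave opposite signs in IR64.

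**Figure D2:**
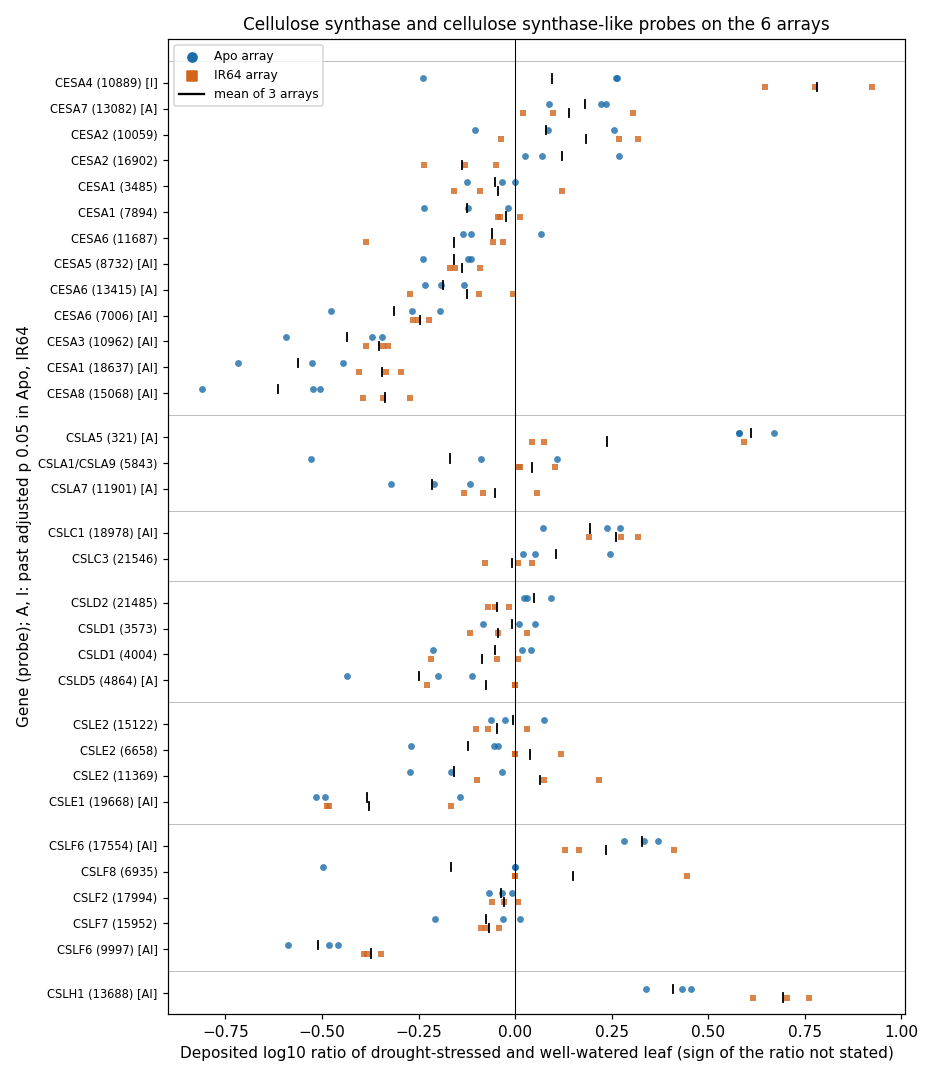
Deposited log10 ratios of the CESA and CSL probes, with a row for each probe; blue circles are the Apo arrays, orange squares the IR64 arrays, and black ticks the means of 3 arrays, and A or I marks an adjusted p under 0.05 in Apo or IR64. CESA8, CESA1 probe 18637 and CESA3 lie left of 0 on all arrays, and CESA4 lies right of 0 in IR64, between 0.647 and 0.923.

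The CSL probes lay far apart, with called members on both sides of 0. CSLH1 (LOC4348359), whose counterpart in barley makes mixed-linkage glucan, was the most positive member by the mean of both genotypes, at rank 586 from the top of all tested probes. Its probe 13688 read 0.339, 0.431 and 0.456 in Apo and 0.616, 0.705 and 0.762 in IR64. All arrays were positive, and every IR64 value exceeded every Apo value. The mean was 0.409 ± 0.0616 in Apo (adjusted p = 0.000339, limma) and 0.694 ± 0.0733 in IR64 (adjusted p = 6.16e-05, limma; n = 3 each), or 2.56-fold and 4.95-fold at base 10.

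CSLF6 (LOC4344719) is known as the main synthase of mixed-linkage glucan in cereals, and its probes contradicted each other. Probe 9997 read -0.588, -0.482 and -0.459 in Apo and -0.39, -0.346 and -0.383 in IR64. It was called negative in Apo (mean -0.510 ± 0.0689, adjusted p = 8.18e-05, limma) and in IR64 (mean -0.373 ± 0.0235, adjusted p = 0.000369, limma; n = 3 each). Probe 17554 read 0.371, 0.333 and 0.283 in Apo and 0.166, 0.412 and 0.129 in IR64. It was called positive in Apo (mean 0.329 ± 0.0442, adjusted p = 0.00366, limma) and in IR64 (mean 0.235 ± 0.154, adjusted p = 0.0174, limma; n = 3 each). When each genotype was fitted alone, the latter had an adjusted p of 0.0777. The pair thus lay on opposite sides of 0 on all 6 arrays, the third probe was listed at 0 throughout, and no direction is given for CSLF6. Over the whole array, 96 of 533 genes with several called probes in Apo (18%) had calls of both signs, and 91 of 398 (22.9%) in IR64.

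CSLA5 (LOC4332966) belongs to the CSLA group, whose members in Arabidopsis make mannans. Its probe 321 read 0.671, 0.58 and 0.58 in Apo and 0.593, 0.0428 and 0.0759 in IR64. The Apo arrays agreed closely, while in IR64 replicate 1 alone was at the level of Apo. The Apo mean of 0.610 ± 0.0523 passed (n = 3; adjusted p = 0.00322, limma), and the IR64 mean of 0.237 ± 0.309 did not (n = 3; adjusted p = 0.11, limma) and was 0.0593 without replicate 1 of IR64 (adjusted p = 0.202). CSLA7 was the lowest CSLA probe in Apo, with a mean of -0.216 (adjusted p = 0.0138, limma). Its call was lost without replicate 1 (adjusted p = 0.062) or replicate 2 (adjusted p = 0.0754) of Apo.

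The CSLC, CSLD and CSLE groups had few calls. CSLC1, of the group that makes the backbone of xyloglucan in Arabidopsis, was positive on all 6 arrays, with means of 0.194 ± 0.107 in Apo (adjusted p = 0.0144, limma) and 0.261 ± 0.0633 in IR64 (adjusted p = 0.00548, limma; n = 3 each). The Apo call was lost without replicate 2 (adjusted p = 0.0764) or replicate 3 (adjusted p = 0.0902) of Apo. CSLE1 was negative on all 6 arrays, at -0.383 ± 0.209 in Apo (adjusted p = 0.0139, limma) and -0.378 ± 0.183 in IR64 (adjusted p = 0.0178, limma; n = 3 each). In both genotypes its second array lay apart, at -0.142 in Apo and -0.166 in IR64. The Apo call of CSLE1 was lost without replicate 1 (0.0887) or replicate 3 (0.0786) of Apo, and the IR64 call without replicate 1 (0.0771) or replicate 3 (0.096) of IR64, all adjusted p.

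Of the 4 CSLD probes, 1 was called, CSLD5 at -0.249 ± 0.167 in Apo (n = 3; adjusted p = 0.0281, limma). That call was lost without replicate 1 (adjusted p = 0.136) or replicate 3 (adjusted p = 0.0743) of Apo, and with Apo fitted alone (0.0584). CSLD5 was listed at 0 on 2 of the IR64 arrays. CSLD1, known in rice for root hair growth, had a pair of probes with means between -0.0859 and -0.00725, neither of them called. In the blocked fit, CSLD1 probe 4004 passed in IR64 (adjusted p = 0.0494). The 3 CSLE2 probes had Apo means of -0.158, -0.123 and -0.00507 and IR64 means of 0.0644, 0.0396 and -0.0473. None was called, and with the block CSLE2 probe 11369 passed in Apo (adjusted p = 0.00969).

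The other CSLF probes, for CSLF2, CSLF7 and CSLF8, were not called in either genotype. CSLF8 was listed at 0 on 4 arrays, and read -0.497 and 0.446 on replicate 1 of Apo and of IR64. With zeros treated as missing, those single arrays remained, and the probe passed in Apo (adjusted p = 0.0248) and in IR64 (adjusted p = 0.0355). A value from one array per genotype has no replicate of its own.

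The expansins showed 1 very large negative ratio among many small ones. EXPB3 (LOC4349349), a beta-expansin, was the most negative member by the mean of both genotypes, at rank 208 from the bottom of 17727 probes. Its probe 4918 read -1.02, -0.870 and -0.759 in Apo and -0.450, -0.968 and -0.751 in IR64. All arrays were far below 0, the genotypes overlapped, and replicate 1 of IR64 was the least negative. The mean was -0.883 ± 0.130 in Apo (adjusted p = 0.00052, limma) and -0.723 ± 0.260 in IR64 (adjusted p = 0.00156, limma; n = 3 each). At base 10 these are changes of 7.63-fold and 5.29-fold.

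EXPB3 lies in a run of 4 neighbouring beta-expansin genes in the gene table, in the order EXPB6, EXPB2, EXPB3 and EXPB4. Its neighbours had no such ratio. The mean of EXPB6 was 0.0465 in Apo and -0.0136 in IR64, and that of EXPB2 was -0.111 and 0.0335. EXPB4 read -0.456, -0.0988 and -0.203 in Apo and was listed at 0 on all IR64 arrays. Its Apo mean of -0.253 ± 0.184 passed (n = 3; adjusted p = 0.0169, limma), though not without replicate 3 of Apo (adjusted p = 0.0504) or with Apo fitted alone (adjusted p = 0.07). Whether these related sequences bind each other's probes was not tested.

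Among the other beta-expansins, EXPB11 and EXPB7 were also negative in Apo. EXPB11 read -0.394, -0.267 and -0.107 in Apo and -0.0216, -0.0522 and -0.0559 in IR64, so its genotypes did not overlap. Its Apo mean of -0.256 ± 0.144 passed (n = 3; adjusted p = 0.0076, limma), and its IR64 mean of -0.0432 did not (adjusted p = 0.546, limma). EXPB7 had a mean of -0.397 ± 0.263 in Apo (n = 3; adjusted p = 0.0192, limma), which was lost without replicate 1 (adjusted p = 0.104) or replicate 2 (adjusted p = 0.0786) of Apo, and with Apo fitted alone (0.0541). These beta-expansins were named after their values were seen.

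EXPB17 had a pair of probes of opposite sign in Apo. Probe 15688 was the most positive beta-expansin probe in Apo, at 0.261, 0.244 and 0.127, against 0.0979, 0.0688 and -0.215 in IR64. Its Apo mean of 0.211 ± 0.0733 passed with all arrays (n = 3; adjusted p = 0.0351, limma), and in none of the fits that left out an Apo array (adjusted p from 0.0612 to 0.156), nor without replicate 2 of IR64 (0.0504), with ratios scaled between arrays (0.0528) or with quantile normalization (0.0648). Probe 3696 read -0.0617, -0.0309 and -0.0815 in Apo and -0.143, -0.217 and -0.174 in IR64. It was called negative in IR64 (mean -0.178 ± 0.0374, n = 3; adjusted p = 0.00391, limma). EXPB10 was not called in Apo (mean 0.131, adjusted p = 0.115), and passed there in the blocked fit (adjusted p = 0.0281) and without replicate 1 of IR64 (0.0496).

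Alpha-expansin ratios were small, and 12 of the 16 EXPA probes were not called in Apo and 13 not in IR64. EXPA7 was positive on every array, at 0.363, 0.187 and 0.186 in Apo and 0.207, 0.253 and 0.171 in IR64. It passed in Apo (mean 0.245 ± 0.102, adjusted p = 0.00398, limma) and in IR64 (mean 0.210 ± 0.0412, adjusted p = 0.0095, limma; n = 3 each), the latter not without replicate 2 of IR64 (adjusted p = 0.0596). EXPA8 was negative on every array, at -0.224, -0.141 and -0.236 in Apo and -0.279, -0.11 and -0.178 in IR64. It passed in Apo (mean -0.2 ± 0.0517, adjusted p = 0.00723, limma) and in IR64 (mean -0.189 ± 0.0854, adjusted p = 0.0114, limma; n = 3 each). Its calls were lost without replicate 3 of Apo (adjusted p = 0.0504) and without replicate 3 of IR64 (adjusted p = 0.051) or with IR64 fitted alone (0.0504). EXPA7 and EXPA8 thus kept opposite signs over all arrays.

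EXPA6 at 0.144 and EXPA2 at -0.253 passed in Apo alone with all arrays (adjusted p = 0.0278 and 0.0265, limma). Each lost its call without replicate 1 (adjusted p = 0.0505 for EXPA6 and 0.135 for EXPA2) and without replicate 2 (0.122 and 0.135) of Apo, and EXPA6 also without replicate 3 (0.0558). With Apo fitted alone both missed the threshold (0.0678 for EXPA6 and 0.0724 for EXPA2). EXPA31 passed in IR64 alone (mean -0.122, adjusted p = 0.0177, limma), though not without replicate 2 (0.0921) or replicate 3 (0.0929) of IR64, or with IR64 fitted alone (0.0676). EXPA16 had a mean of -0.31 in Apo with a wide spread (SD 0.297, n = 3), and passed in the blocked fit (adjusted p = 0.0275) but not without it (adjusted p = 0.117, limma). These were also named after their values were seen.

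EXPA4, an expansin whose level alters the growth of rice seedlings, had a pair of probes. Probe 12995 read 0.0577, 0.248 and 0.0773 in Apo and 0.194, 0.365 and 0.024 in IR64, positive throughout. It was not called in Apo (adjusted p = 0.17, limma; 0.0466 in the blocked fit) or in IR64 (adjusted p = 0.062, limma; 0.0174 with the block, and 0.0325 without replicate 3 of IR64). Probe 3399 was the lowest EXPA probe in Apo, but it read -1.40 on replicate 1 of Apo and was listed at 0 on the other 5 arrays. Its mean of -0.468 therefore rests on 1 array and was not called.

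EXPA10, known in rice as an aluminium-inducible expansin of the root, also had a pair of probes. Probe 7770 read -0.247, -0.0345 and -0.0167 in Apo and -0.048, 0.3 and 0.388 in IR64, where replicate 1 was alone below 0. It was not called in IR64 (mean 0.213 ± 0.230, n = 3; adjusted p = 0.0961, limma). It passed there in the blocked fit (adjusted p = 0.0137) and without replicate 1 of IR64 (adjusted p = 0.0105). Probe 4170 read 0.139, 0 and 0.0961 in Apo and 0.0534, -0.0329 and -0.0287 in IR64, and was not called.

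The 4 expansin-like A probes ranged in Apo from EXLA4 at the bottom to EXLA1 at the top. EXLA4 read -0.701, -0.609 and -0.532 in Apo and -0.452, -0.0982 and 0.031 in IR64. Its Apo mean of -0.614 ± 0.0844 passed (n = 3; adjusted p = 0.00161, limma), and its IR64 mean of -0.173 ± 0.250 did not (n = 3; adjusted p = 0.16, limma). Without replicate 1 of IR64 the latter was -0.0336 (adjusted p = 0.636). EXLA1 was positive on all 6 arrays, with a mean of 0.144 ± 0.0159 in Apo (n = 3; adjusted p = 0.0114, limma). The call was lost without replicate 2 (adjusted p = 0.0545) or replicate 3 (adjusted p = 0.0679) of Apo. In IR64 EXLA1 had a mean of 0.0988 ± 0.062 (n = 3; adjusted p = 0.0512, limma; 0.0419 in the blocked fit and 0.00948 without replicate 1 of IR64).

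**Figure D3:**
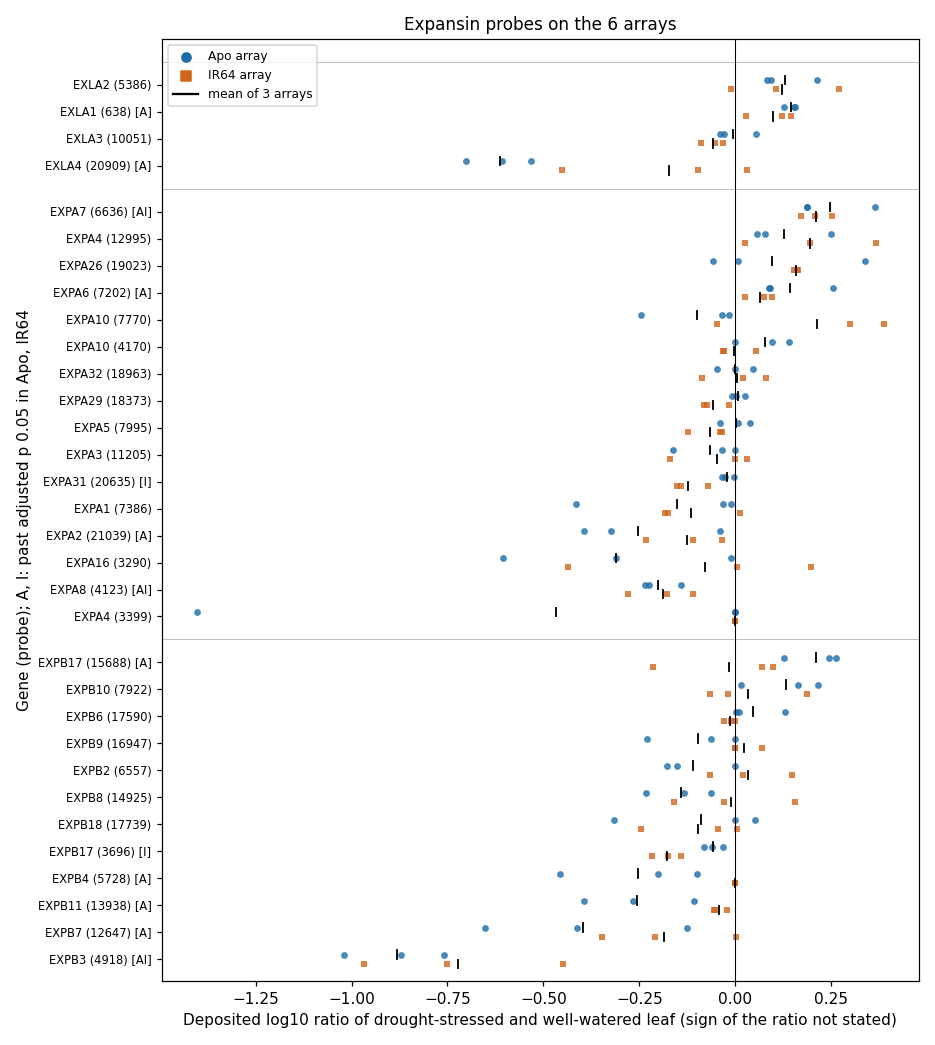
Deposited log10 ratios of the 32 expansin probes, with a row for each probe; blue circles are the Apo arrays, orange squares the IR64 arrays, and black ticks the means of 3 arrays, and A or I marks an adjusted p under 0.05 in Apo or IR64. EXPB3 lies between -1.02 and -0.450 on all arrays, and the single point of EXPA4 probe 3399 at -1.40 has its other 5 arrays at 0.

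Over the 64 tested probes, 35 were called in neither genotype, or 54.7%, beside 38.2% of all probes. The genes not yet described were all among them, namely EXPA1, EXPA3, EXPA5, EXPA26, EXPA29, EXPA32, EXPB8, EXPB9, EXPB18, EXLA2, EXLA3, the gene that carries both CSLA1 and CSLA9 as synonyms, CSLC3, CSLD2, CSLF2 and CSLF7. Their means ran in Apo from -0.17 for CSLA1/CSLA9 to 0.13 for EXLA2, and in IR64 from -0.116 for EXPA1 to 0.159 for EXPA26. A single array decided some of these outcomes. EXPA26 read 0.162, 0.153 and 0.16 in IR64 and 0.337, 0.00599 and -0.0591 in Apo. It had an adjusted p in IR64 of 0.126 with all arrays and 0.00997 without replicate 1 of Apo (limma). Without replicate 1 of IR64, EXPA29 passed in IR64 (mean -0.0779, adjusted p = 0.0477) and EXLA2 in Apo (mean 0.13, adjusted p = 0.0366).

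The difference between the genotypes asked whether the tolerant and the susceptible genotype shifted these genes unequally. In the main fit, which did not block on replicate number, no member probe passed in Apo minus IR64 with all arrays (limma). Of all probes 2.02% passed there, 0.773% with a positive and 1.25% with a negative difference. At an unadjusted p under 0.05, 13 of the 64 members (20.3%) and 27.3% of all probes were found. The arrays of the genotypes did not overlap for 16 members (25.0%), while this held for 34.5% of all probes (Apo higher in 15.3%, lower in 19.1%). Apo lay farther from 0 than IR64 in 45 of the 64 members (70.3%), and in 58.3% of all probes. No member was called in opposite directions in the genotypes, as 0.558% of all probes were.

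The members nearest to a difference were CSLH1 and CESA4, both more positive in IR64. CSLH1 differed by -0.286 (SE 0.0568) in Apo minus IR64 (adjusted p = 0.0597, limma), and CESA4 by -0.687 (SE 0.150; adjusted p = 0.0682, limma). In the fit blocked on replicate number, these 2 members passed (adjusted p = 0.0404 for CSLH1 and 0.0414 for CESA4), where 5.36% of all probes passed. CESA8 and CESA1 probe 18637, which were more negative in Apo on every array, differed by -0.277 (adjusted p = 0.124, limma) and -0.219 (adjusted p = 0.139, limma). EXPB3 differed by -0.16 (adjusted p = 0.466, limma), within the spread of its arrays.

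Replicate 1 of IR64 bore on this comparison. Without it, 9 of the 64 member probes passed, a smaller share than the 33.6% of all probes that passed. The difference was negative for 5 of the 64, again a smaller share than the 19.7% of all probes. No member passed when any other single array was left out. The differences without it were -0.754 for CESA4 (adjusted p = 0.0292), -0.325 for CSLH1 (0.0102), -0.581 for EXLA4 (0.00625), -0.443 for EXPA10 probe 7770 (0.017) and -0.304 for CSLE2 probe 11369 (0.0478). They were 0.551 for CSLA5 (adjusted p = 0.00329), 0.304 for CESA2 probe 16902 (0.0494), 0.138 for EXPB17 probe 3696 (0.0369) and 0.125 for EXPA31 (0.0342). With that array, the adjusted p of these members ran from 0.0597 to 0.196 in limma. In all 9 of these members, replicate 1 of IR64 was the IR64 array nearest to the Apo mean. These members were picked because they passed without that array, so this was largely set by the pick and is no separate evidence. Without replicate 2 of Apo, 0.0508% of all probes passed.

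**Figure D4:**
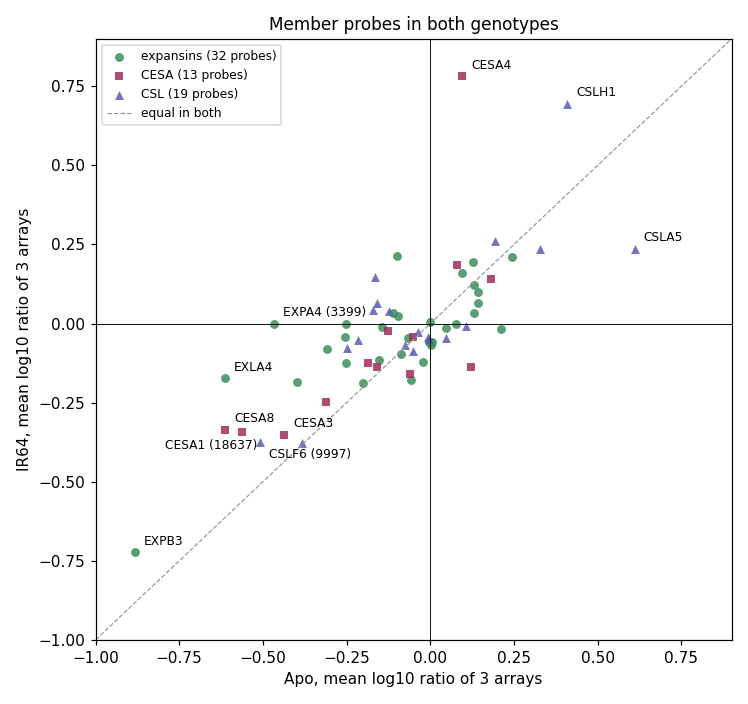
Mean log10 ratio of 3 IR64 arrays against that of 3 Apo arrays for the 64 tested member probes, with expansins as circles, CESA as squares and CSL as triangles; the dashed line marks equal ratios. Names are given where a mean lies beyond 0.4 from 0. EXPB3 is the lowest point in both genotypes, while CESA4 and CSLH1 lie above the line, at 0.782 and 0.694 in IR64.

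Other wall genes were taken from a list of enzymes and regulators that held no expansin, CESA or CSL. Of its 43 tested probes, 10 were positive and 7 negative in Apo, 11 positive and 3 negative in IR64, and 0 were called in the difference. These are 23.3% and 16.3% in Apo, beside 24.5% and 25.6% of all probes, and 25.6% and 6.98% in IR64, beside 22.7% and 20.2%. Its median was 0.0398 in Apo and 0.0207 in IR64, so it did not share the negative median of CESA. SUS4, a sucrose synthase that supplies the sugar nucleotide from which cellulose is made, had a mean of 1.15 ± 0.0223 in Apo and 1.03 ± 0.0417 in IR64 (n = 3 each; adjusted p = 6.42e-06 and 1.09e-05, limma). SUS3, of the same family, had means of 0.324 ± 0.0827 and 0.254 ± 0.0386 (n = 3 each; adjusted p = 0.000759 and 0.00278, limma). LOC4347540, one of 2 genes that carry the synonym BC1, had means of 0.307 ± 0.115 and 0.273 ± 0.113 (n = 3 each; adjusted p = 0.00505 and 0.0101, limma). The other BC1 gene, LOC4333114, was called negative in Apo (mean -0.529 ± 0.0905, n = 3; adjusted p = 0.0117, limma) and not called in IR64 (mean -0.112, adjusted p = 0.493). Genes entered the list by synonym alone, and which of the 2 BC1 genes acts in the wall was not checked. The list thus held genes on both sides of 0.

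Marker lists of several cell types, those of root and of anther and pollen from outside the leaf, were read beside these results. Of 17 probes for cyclins and other markers of dividing cells, 5 were negative and 1 positive in Apo, and 1 was negative and 1 positive in IR64. The negative share in Apo, 29.4%, was near the 25.6% of all probes. In IR64 the negative share was 5.88%, beside 20.2% of all probes. The positive share was 5.88% in both genotypes, beside 24.5% in Apo and 22.7% in IR64. Of 12 probes for vascular and secondary-wall markers, 5 were positive and 2 negative in Apo, and 6 positive and 2 negative in IR64, and 10 of these 12 also stand in the list of other wall genes. The positive shares were 41.7% in Apo and 50% in IR64, beside 24.5% and 22.7% of all probes. The negative share was 16.7% in both, beside 25.6% and 20.2% of all probes. These markers were matched by synonym alone. The BC1 gene LOC4347540, whose part in the wall was not checked, counts among the positive ones in both genotypes. Laccases, enzymes of lignin formation, lay on both sides, in IR64 from -0.399 for LAC15 to 0.833 for LAC10, and in Apo from -0.306 for LAC4 to 0.390 for LAC19. Of 5 anther and pollen probes, 1 was positive in each genotype and none negative. That positive share of 20% was near the 24.5% and 22.7% of all probes in Apo and IR64. Of 5 root probes, 1 was positive and 1 negative in Apo (20% each, beside 24.5% and 25.6% of all probes). In IR64, 3 root probes were negative (60%, beside 20.2% of all probes). Of 6 probes for leaf photosynthesis, 5 were negative in Apo and 4 in IR64. These are 83.3% and 66.7%, beside 25.6% and 20.2% of all probes. The part of these cell types in the ratios of the wall genes was not tested.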

How the data were processed

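The values are within-array log10 ratios of 6 arrays, as the authors deposited them; the submitters' processing notes name Agilent Feature Extraction 8.1. Not given in the sources used here: base, sign, background correction, dye normalization, centring. The median ratio was between -0.0010 and 0.0000 on every array. Without channel intensities, which were not used here, it is unknown which probes stood above background. Precision is limited by the number of arrays. Ratios were used as deposited. The 17727 annotated probes that were not 0 on all arrays were fitted with limma 3.58.1 in R 4.3.3 (lmFit, eBayes; 1 mean per genotype, all 6 arrays), with Benjamini-Hochberg adjustment and a threshold of 0.05; the code was tested on simulated data. Deviations from the genotype means, for arrays of the same number, correlated at 0.322, 0.261 and 0.340, so the numbers were taken to pair the arrays. The main fit and its counts left this pairing out, and the replicate block was an alternative. Probes were joined to gene names through the assembly ASM3414082v1 table with pandas 2.3.3 in Python 3.11.15, and figures drawn with matplotlib 3.10.9. Probes of a gene were kept apart. Members, lists and tests were chosen with earlier results of these data known. Named in full were the 4 most positive and 4 most negative called members, every CESA probe and members with several probes; other names came after values were seen. In all, 16 alternative settings were run, with zeros treated as missing added after seeing the data.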

Additional observations from a re-analysis of the deposited data

How the results depend on the processing

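Of the 16 alternative settings, the one that averaged the probes of a gene was compared only for genes with a single probe. The 9 member genes with several probes, CSLF6 among them, were left out of that comparison. In the settings compared, no ratio of a member probe that passed the threshold changed its sign. Of the 26 Apo calls, 12 held in every setting compared, and of the 16 IR64 calls, 9 did. With the replicate number as a block, the positive IR64 count was 10 and the difference between genotypes had 2 calls, both negative; beside the calls named above with their block value, it changed no other call. The median of CESA in Apo was -0.112 with ratios scaled between arrays, -0.107 with quantile normalization, -0.142 without probes at 0 on any array and -0.172 with probes of a gene averaged. The median of the expansins in Apo was -0.0404 without probes at 0 on any array, and the same with zeros treated as missing. In IR64 it was -0.0505, -0.0297 and, with probes of a gene averaged, -0.0432. The median of CSL in Apo was -0.0217 without probes at 0 and -0.0763 with probes averaged. Leaving out each array in turn gave 16 to 27 calls in Apo (4 to 10 positive, 11 to 17 negative), 12 to 19 in IR64 (4 to 8 positive, 7 to 11 negative) and 0 to 9 in the difference (0 to 4 positive, 0 to 5 negative). The shares of all probes moved as well. In Apo, 37.5% of all probes passed without replicate 3 of Apo, beside 50.1% with all arrays. In the difference, 33.6% passed without replicate 1 of IR64, beside 2.02% with all arrays. With each array left out in turn, the family medians ran from -0.0619 to -0.0193 in Apo and -0.0337 to -0.00463 in IR64 for expansins, from -0.177 to -0.0790 and -0.139 to -0.0492 for CESA, and from -0.0514 to -0.0105 and -0.0351 to -0.00772 for CSL. The cause of these shifts was not tested. With 3 arrays a genotype and no channel intensities, how far a dim probe limits its own ratio is unknown.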
